A study of Mus musculus with 6 samples.

Results

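Hepatocytes secrete most of the proteins of blood plasma, and 57 genes for such proteins were followed here in libraries of epididymal white fat (eWAT), the fat pad attached to the epididymis of male mice. The genes were chosen by name as secreted liver proteins, apolipoproteins, clotting factors and serpins, with earlier results of these data known. All 57 were found among the 54532 gene identifiers of the count table. The study set mice that lack the inhibitory receptor PD-1 in myeloid cells, of genotype PD-1fl/fl Lyz2-Cre and called KO here, against control littermates of genotype PD-1fl/fl, and sequenced mRNA of the fat pad. Lyz2-Cre is meant to delete the floxed gene in macrophages, monocytes and neutrophils and to leave it in other cells of the tissue. The controls carry the floxed alleles without the Cre. Mice of both genotypes ate a high-fat diet for 16 weeks, which is a model of diet-induced obesity, and there were 3 libraries of each genotype. Replicates are numbered in accession order, and values of replicates 1, 2 and 3 are given in that order throughout. The labels do not name separate animals for the libraries, so a p-value measures only the spread between these samples.

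Plasma proteins are made in the rough endoplasmic reticulum of hepatocytes and released into the sinusoids, where they carry hormones and lipids, form clots, inhibit proteases and take part in innate defence. Apolipoproteins coat lipoprotein particles, and fat takes up the lipids these particles carry rather than making most of the particles itself. Liver-enriched transcription factors of the HNF1, HNF4 and C/EBP families drive many of these genes in hepatocytes, and C/EBP factors also act in adipocytes.

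Proximal promoters are printed for 5 genes, because the first 4 belong to the group whose levels moved together between libraries and F7 departed from it. Each line gives 250 bases before the start of the gene, 5′ to 3′ on the strand of the gene, from RefSeq on GRCm38.p6. Capitals mark GTTAAT, which is part of the site of HNF1, or TTGCNNAA, the core of the site of C/EBP, on either strand. The positions are chr5:90460620-90460869 for Alb, chr3:83025903-83026152 for Fga and chr3:83049864-83050113 for Fgb, whose gene lies on the minus strand. Serpina1b, also on the minus strand, has chr12:103738190-103738439, and F7 has chr8:13025784-13026033.
Alb: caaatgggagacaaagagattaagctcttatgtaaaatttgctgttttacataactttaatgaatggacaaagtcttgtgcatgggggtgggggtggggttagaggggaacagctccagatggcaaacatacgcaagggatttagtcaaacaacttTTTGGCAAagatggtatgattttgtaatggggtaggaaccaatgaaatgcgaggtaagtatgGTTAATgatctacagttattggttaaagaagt
Fga: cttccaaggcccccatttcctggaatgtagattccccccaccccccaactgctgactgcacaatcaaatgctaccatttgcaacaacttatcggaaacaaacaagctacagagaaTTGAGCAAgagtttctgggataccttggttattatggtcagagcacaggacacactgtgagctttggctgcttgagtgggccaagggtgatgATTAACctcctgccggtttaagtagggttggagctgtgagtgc
Fgb: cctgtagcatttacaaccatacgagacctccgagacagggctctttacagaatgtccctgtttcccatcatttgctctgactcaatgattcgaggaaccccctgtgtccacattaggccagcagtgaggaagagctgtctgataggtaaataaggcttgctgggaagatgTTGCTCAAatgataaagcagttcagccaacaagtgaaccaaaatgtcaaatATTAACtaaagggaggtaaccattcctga
Serpina1b: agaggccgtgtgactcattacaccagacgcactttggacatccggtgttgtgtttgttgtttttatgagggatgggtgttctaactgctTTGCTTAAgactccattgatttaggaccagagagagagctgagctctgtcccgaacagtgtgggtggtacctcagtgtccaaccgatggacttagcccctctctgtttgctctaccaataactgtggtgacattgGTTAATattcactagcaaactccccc
F7: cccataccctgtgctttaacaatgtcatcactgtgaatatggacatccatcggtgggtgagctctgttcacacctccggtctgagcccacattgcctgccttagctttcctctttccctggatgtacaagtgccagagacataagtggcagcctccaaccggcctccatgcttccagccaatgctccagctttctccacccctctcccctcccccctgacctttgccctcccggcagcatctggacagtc

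Alb, Fga, Fgb and Serpina1b each held both motifs, with GTTAAT or its complement between -43 and -21 relative to the start, whereas no capitals fall in the F7 window. The printed genes are examples. Apoa1, Fgg and Serpinc1 moved with the group yet held no motif, and Vtn, which departed from it in KO replicate 3, held the GTTAAT motif. Whether a motif goes with moving together was not tested. RefSeq promoters were matched for 48 of the 57 genes. GTTAAT was present in 15 of the 48 (31.25%), against 7.49% of 27025 promoters of the same length over all genes. The 15 include Serpina1a to Serpina1e, near-identical gene copies whose windows share the stretch around the motif, so these matches are not independent. TTGCNNAA was present in 17 of the 48 (35.4%), against 10.8% of all promoters, and the 17 include the copies Serpina1b, Serpina1d and Serpina1e. CAAAGTCCA, a strict form of the HNF4 site, was in none of the 48 and in 0.451% of all promoters. No match overlapped another among 33 matches, and a match is a description of letters, not of a bound site.

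The 57 genes took very different shares of the libraries, and the differences ran across both genotypes. They made up 0.0260%, 0.260% and 0.0402% of all counts in the KO libraries, and 0.0209%, 18.7% and 1.23% in the control libraries. The exact Clopper-Pearson 95% intervals of these shares, which cover counting error only, did not overlap between any pair of libraries. Control replicate 2 therefore stood far above the rest, followed by control replicate 3 and KO replicate 2. On the count side, 35, 56 and 51 of the 57 genes had at least 3 counts in the KO libraries, against 26, 57 and 56 in the controls. A count under 3 is treated as at the floor of detection. Library totals lay between 20108185 and 27225533 counts, so depth alone differed by little. Genes at 0 numbered 10, 0 and 5 in the KO libraries and 26, 0 and 1 in the controls.

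The tissue label was checked with marker genes. Adipoq, which encodes the adipocyte hormone adiponectin, had 36878, 23302 and 67367 counts in the KO libraries and 97427, 125 and 46880 counts in the controls. The 13 adipocyte markers together stood at 38263, 29828 and 75863 CPM in the KO libraries and at 80755, 7627 and 55112 CPM in the controls, where CPM is the count scaled to library size with TMM factors. Control replicate 2 thus held hardly any Adipoq, against its label. Car3, a carbonic anhydrase of adipocytes that liver also makes, was not low there, with 5764, 4132 and 16980 CPM in the KO libraries and 14291, 6250 and 14359 CPM in the controls, and made up most of the sum in control replicate 2. Hnf4a, a transcription factor of hepatocytes, had 2, 143 and 6 counts in the KO libraries and 16, 5471 and 940 counts in the controls, in an order close to that of the plasma protein genes. Clec4f, which marks the Kupffer cells of liver, had 0, 38 and 2 counts in the KO libraries and 0, 1365 and 192 counts in the controls. Other Kupffer cell markers, Vsig4 and Marco, did not keep that order. Vsig4 had 186, 109 and 29 counts in the KO libraries and 384, 375 and 86 in the controls. Marco had 46, 59 and 103 counts in the KO libraries and 96, 82 and 69 in the controls. The 5 Kupffer cell markers together stood at 9.48, 21.9 and 6.60 CPM in the KO libraries and at 20.5, 328 and 26.5 CPM in the controls. The intestine also makes some apolipoproteins, and 7 markers of its epithelium summed to 6.83, 9.08 and 8.54 CPM in the KO libraries and to 31.2, 685 and 25.6 CPM in the controls. Of these, Sis and Fabp6 had 0 counts in all 6 libraries and Alpi had 0 in all but control replicate 1, with 6. Fabp2 had 1, 77 and 7 counts in the KO libraries and 0, 7523 and 429 counts in the controls, and it gave 673 of the 685 CPM in control replicate 2. Vil1 had 77, 0 and 80 counts in the controls and Cdh17 had 31, 0 and 0, so neither was seen in control replicate 2. Lgals4 had 26.9, 12.5 and 6.97 CPM in the controls. In bulk tissue, fewer cells of a type and less RNA per cell cannot be told apart. Pdcd1, which encodes PD-1, had 19, 19 and 5 counts in the KO libraries and 13, 0 and 0 counts in the controls. These counts come from all cells of the tissue and do not check a deletion limited to myeloid cells.

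**Figure D1:**
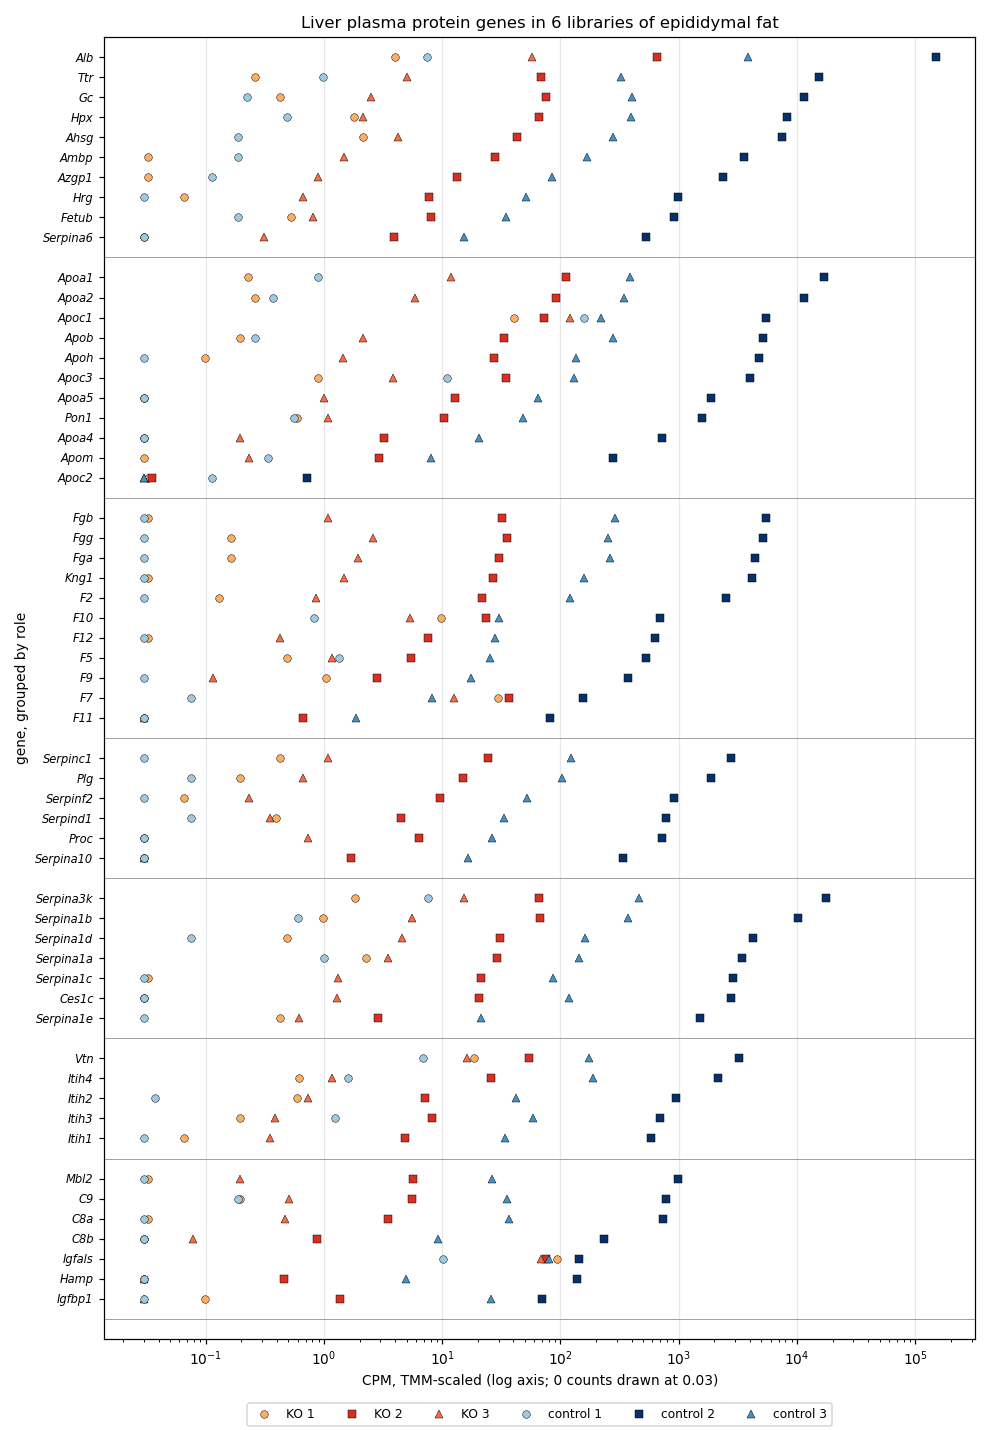
Level of each of the 57 genes in the 6 libraries, in TMM-scaled CPM on a log axis, with 1 row per gene, genes grouped by role and 0 counts drawn at 0.03. In 40 of the 57 genes the order from the right is control replicate 2, control replicate 3, KO replicate 2, KO replicate 3 and then the remaining pair.

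By TMM-scaled CPM every one of the 57 genes was highest in control replicate 2, and control replicate 3 came next for 54 of them. The exceptions were F7, Igfals and Apoc2, the last with no library above 8 counts. The highest library of Igfals turned on the scaling: in CPM of total counts, without TMM, it stood at 113 in KO replicate 1 and at 79.6 in control replicate 2. Ratios between libraries of the same genotype were then taken, with a level under 3 counts put at 3 counts. Control replicate 2 was at least 10-fold above control replicate 1 for 56 of the 57 genes, against 7.27% of 19120 genes with 10 or more counts in any library. Control replicate 3 was at least 10-fold above control replicate 1 for 54 of 57, against 3.21% of those genes. Within the KO group, KO replicate 2 passed 10-fold over KO replicate 1 for 46 of 57 (1.54% of all genes) and KO replicate 3 did so for 14 of 57 (0.314% of all genes). Each ratio sets 1 library against 1 library, so none carries a test. The genes and the libraries compared were chosen with earlier results of these data known, so these counts only describe. The median ratio of control replicate 2 to control replicate 1 was at least 7012 with TMM scaling and at least 3976 with CPM of total counts.

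The carrier proteins, 10 genes, included the most abundant transcripts. Alb, the main protein of plasma and a carrier of fatty acids, lies at chr5:90460897-90476602 on GRCm38 and had 123, 18646 and 1483 counts in the KO libraries, against 197, 1662139 and 105789 counts in the controls. It alone gave 8.27% of all counts in control replicate 2. Ttr, which carries thyroxine and the retinol-binding protein, had 8, 1935 and 130 counts in the KO libraries and 26, 171324 and 8921 counts in the controls. Gc, the vitamin D-binding protein, had 13, 2162 and 64 counts in the KO libraries, and the controls had 6, 127307 and 11042. In all of these genes the genotypes overlapped, because the control group held both the highest library and a library near the lowest. The other 7 carriers, namely Ahsg, Fetub, Hpx, Ambp, Azgp1, Serpina6 and Hrg, followed the same order in their upper libraries. Hpx, which binds free heme, had 55, 1863 and 55 counts in the KO libraries and 13, 91769 and 10693 counts in the controls. Serpina6, which carries glucocorticoids, was at 0 in KO replicate 1 and control replicate 1. Azgp1, a glycoprotein that human and mouse adipocytes are known to make as well, had only 1 and 3 counts in those same libraries.

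Among the apolipoproteins, Apoa1 and Apoa2 are the main proteins of high-density lipoprotein. Apoa1 had 7, 3204 and 307 counts in the KO libraries and 24, 190886 and 10577 counts in the controls. For Apoa2 the KO libraries had 8, 2613 and 153 counts and the controls had 10, 129390 and 9494. Both had at most 24 counts in KO replicate 1 and control replicate 1. Apob, the structural protein of very-low-density lipoprotein, had 6, 949 and 55 counts in the KO libraries and 7, 57764 and 7660 counts in the controls. Apoa4, Apoa5, Apoh and Apom had at most 9 counts in those same libraries, although 69.8% of the exon bases of Apoa4 and 20.8% of those of Apoa5 are shared with antisense genes.

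Apoc1 differed from the rest of its family in KO replicates 1 and 3 and control replicate 1. Its product modulates lipoprotein uptake and lipolysis, and macrophages and adipocytes are known to express it. Apoc1, at chr7:19689481-19692660, had 40.8, 72.5 and 121 CPM in the KO libraries and 158, 5464 and 218 CPM in the controls. Every KO library lay below every control library, which made Apoc1 the only gene among the 56 tested whose genotypes did not overlap. Among 15928 tested genes 5.61% showed such a separation with KO lower and 9.54% with KO higher, and none of the 56 had all KO libraries higher. The 1 of 56 with KO lower is below the share over all genes. In control replicate 3 Apoc1 stood at 3.99% of its control replicate 2 level, near the 4.14% of the median gene. The narrowest gap lay between control replicate 1, at 158 CPM, and KO replicate 3, at 121 CPM. Apoc3, an inhibitor of lipoprotein lipase, had 27, 989 and 98 counts in the KO libraries and 292, 45007 and 3550 counts in the controls. Control replicate 1 therefore held more Apoc3 than KO replicate 3, although it held less Alb. Apoc2, the activator of lipoprotein lipase, was nearly uncounted, with 1, 1 and 0 counts in the KO libraries and 3, 8 and 0 in the controls. Since 79.5% of its exon bases are shared with Gm44805 on the same strand, its counts are uncertain. Pon1, an esterase carried on high-density lipoprotein, had 18, 296 and 28 counts in the KO libraries and 15, 17706 and 1308 counts in the controls.

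Fibrinogen is built of the chains encoded by Fga, Fgb and Fgg, which lie side by side on chromosome 3. Fga had 5, 868 and 50 counts in the KO libraries and 0, 48936 and 7158 in the controls. The Fgb counts were 1, 910 and 28 in the KO libraries and 0, 61625 and 7845 in the controls. For Fgg they were 5, 998 and 67 in the KO libraries and 0, 57279 and 6886 in the controls. All chains were thus at 0 in control replicate 1, where 3 counts set the limit at 0.112 CPM. Per length, in the FPKM the authors deposited, Fgb stood at 0.828 of Fga in KO replicate 2 and 0.442 in KO replicate 3, against 0.995 in control replicate 2 and 0.866 in control replicate 3. The ratio of Fgg to Fga was 1.65 in KO replicate 2 and 1.93 in KO replicate 3, against 1.68 in control replicate 2 and 1.38 in control replicate 3. The low Fgb ratio of KO replicate 3 rests on 28 counts. F2, which encodes prothrombin, had 4, 618 and 22 counts in the KO libraries and 0, 28328 and 3268 counts in the controls. Kng1, F11 and F12 of the contact pathway and F9 were also at 0 in control replicate 1.

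F7 and F10, neighbouring genes on chromosome 8 that encode the factors acting first and next in the tissue factor pathway, broke this pattern. F7, at chr8:13026034-13035809, had 29.9, 36.8 and 12.5 CPM in the KO libraries and 0.0749, 157 and 8.14 CPM in the controls. KO replicate 1, with hardly any Alb, thus held 916 counts of F7, while control replicate 1 held 2. F10, at chr8:13037308-13056676 and named after its values were seen, had 9.84, 23.4 and 5.32 CPM in the KO libraries and 0.824, 693 and 30.4 CPM in the controls. For both genes the control libraries lay above and below the KO libraries. Transcripts of 14 macrophage markers summed to 4968, 5821 and 1470 CPM in the KO libraries and 1345, 494 and 1066 CPM in the controls, so they were highest in KO replicates 1 and 2. The part of these cells in the F7 and F10 values was not tested. F9, a clotting protease encoded on the X chromosome, had 32, 80 and 3 counts in the KO libraries and 0, 4173 and 475 counts in the controls. F5, the cofactor of activated factor X, had 15, 156 and 30 counts in the KO libraries and 36, 5906 and 688 in the controls.

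Genes that limit or dissolve clots had their highest levels in control replicate 2, then control replicate 3, then KO replicate 2. Serpinc1, which encodes antithrombin, had 13, 698 and 28 counts in the KO libraries and 0, 31020 and 3355 counts in the controls. An antisense gene shares 34.4% of its exon bases. Plg, the precursor of plasmin, had 6, 426 and 17 counts in the KO libraries, and the controls had 2, 21043 and 2791. Serpinf2, the inhibitor of plasmin, had 2, 274 and 6 counts in the KO libraries and 0, 10282 and 1425 counts in the controls. Across the 6 genes of this class, with Proc, Serpind1 and Serpina10, none reached 3 counts in control replicate 1. Their KO replicate 2 levels ranged from 0.502% to 1.05% of those of control replicate 2.

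The alpha-1-antitrypsin genes, Serpina1a to Serpina1e, are near-identical copies on chromosome 12 that encode inhibitors of neutrophil elastase, so the split of reads among them is uncertain. Serpina1b, the highest of them, had 30, 1900 and 144 counts in the KO libraries and 16, 113922 and 10250 in the controls. Serpina1d had 15, 887 and 118 counts in the KO libraries and 2, 47252 and 4430 counts in the controls. Serpina1a had 69, 826 and 90 counts in the KO libraries and 27, 38599 and 3897 in the controls, and was the largest of the copies in KO replicate 1 and control replicate 1. Serpina1e made up 1.91% of the counts of the 5 copies in KO replicate 2 (exact 95% interval 1.52% to 2.36%) and 3.98% in KO replicate 3 (2.29% to 6.38%), against 6.75% in control replicate 2 (6.65% to 6.85%) and 2.72% in control replicate 3 (2.51% to 2.95%). The share was thus largest in control replicate 2 among those 4 libraries, and KO replicate 1, with 13 counts of Serpina1e, stood at 10.2% (5.52% to 16.7%). Serpina3k, a kallikrein-binding serpin, had 56, 1867 and 395 counts in the KO libraries and 203, 198298 and 12672 counts in the controls. Ces1c, a carboxylesterase secreted into mouse plasma, was at 0 in KO replicate 1 and control replicate 1 and reached 31053 counts in control replicate 2.

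The inter-alpha-trypsin inhibitor heavy chains Itih1 to Itih3 bind hyaluronan in the extracellular matrix, and Itih4 is a related plasma protein. Itih4 had 19, 732 and 30 counts in the KO libraries and 43, 23873 and 5116 in the controls. Itih2 had 18, 204 and 19 counts in the KO libraries and 1, 10618 and 1151 counts in the controls. Itih3 and Itih4 were rather high in control replicate 3, at 8.49% and 8.79% of their control replicate 2 levels, whereas Itih1 and Itih2 stood at 5.83% and 4.44%. Vtn, which encodes the adhesive protein vitronectin at chr11:78499091-78502324, had 18.7, 54.5 and 16.2 CPM in the KO libraries and 6.93, 3260 and 175 CPM in the controls. It was well above the floor in all 6 libraries, and the genotypes overlapped.

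The last class holds binding proteins, a hormone and innate defence proteins. Igfals, the acid-labile subunit that keeps insulin-like growth factors in the circulation, lies at chr17:24865997-24882010. It had 94.3, 74.8 and 68.2 CPM in the KO libraries and 10.1, 143 and 79.5 CPM in the controls. Its level thus lay between 68.2 and 143 CPM in 5 libraries, and control replicate 1 alone was lower. Igfbp1, an insulin-regulated binding protein of the same growth factors, had 3, 39 and 0 counts in the KO libraries and 0, 778 and 701 counts in the controls. In CPM, Igfbp1 stood at 69.6 in control replicate 2 and at 25.7 in control replicate 3, much closer than the levels of Alb in these libraries. Mbl2, a lectin that starts complement activation, had 1, 160 and 5 counts in the KO libraries and 0, 11000 and 715 in the controls. C9, which forms the pore of the membrane attack complex, had 6, 158 and 13 counts in the KO libraries and 5, 8676 and 966 counts in the controls. C8a, part of the same complex, had 1, 99 and 12 counts in the KO libraries and 0, 8285 and 1005 counts in the controls. Hamp, the iron hormone hepcidin, had 13 counts in KO replicate 2, none in the other KO libraries, and 0, 1555 and 134 in the controls.

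Most of the genes kept a nearly fixed ratio to one another across the libraries that held many of their transcripts. As a percent of the level in control replicate 2, the median gene stood at 0.747% in KO replicate 2 and 0.0508% in KO replicate 3, against 4.14% in control replicate 3. The quartiles were 0.582% and 0.889% in KO replicate 2, 0.0335% and 0.0698% in KO replicate 3, and 3.03% and 4.97% in control replicate 3. Within 2-fold of the median lay 48 genes (84.2%) in KO replicate 2, 40 (70.2%) in KO replicate 3 and 51 (89.5%) in control replicate 3. In KO replicate 1 and control replicate 1 only 13 and 8 genes did so, with 10 and 26 genes at 0. Median percents of 22 hepatocyte enzyme genes, which encode no plasma protein, were close to these, at 0.660% in KO replicate 2, 0.0419% in KO replicate 3 and 3.55% in control replicate 3. For 11 hepatocyte transcription factors they were 0.723%, 0.0476% and 3.95% in the same libraries. By length-scaled level Alb led, with Apoa2 next, in KO replicate 2 and in control replicates 2 and 3, whereas in KO replicate 3 Apoc1 and Igfals stood above Alb and Apoa2. Pearson correlation of log2(FPKM + 0.1) with control replicate 2 over the 57 genes was 0.868 in KO replicate 2 and 0.650 in KO replicate 3, and 0.953 in control replicate 3. It was 0.219 in KO replicate 1 and 0.399 in control replicate 1. These are descriptions across genes that share each library, and genes are not independent replicates.

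**Figure D2:**
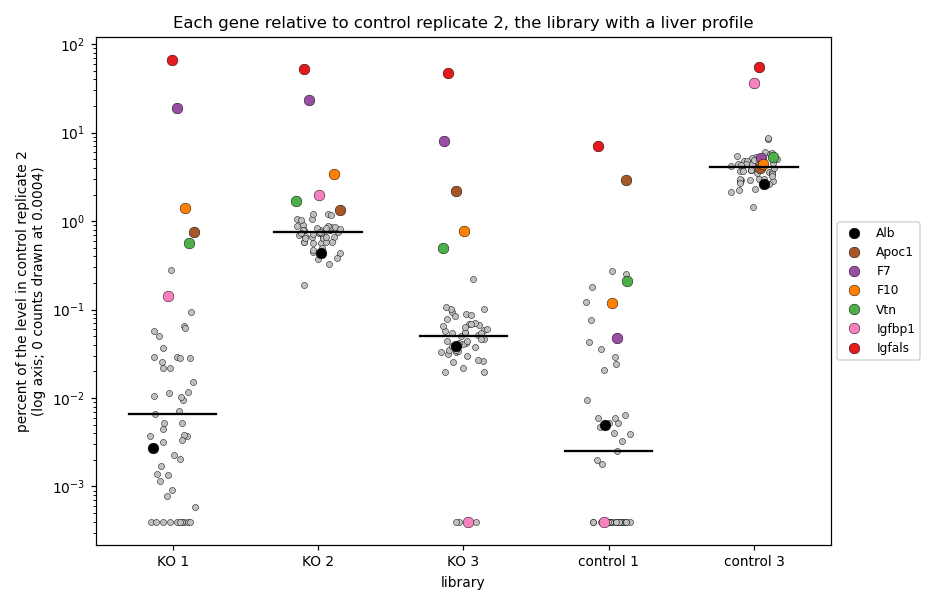
Level of each gene as a percent of its level in control replicate 2, on a log axis, in the 5 other libraries (0 counts drawn at 0.0004; Apoc2, with at most 8 counts, is left out). Lines mark the medians over all 57 genes, and in KO replicate 2 and control replicate 3 most points lie close to them. Igfals stands above the line in every library and F7 in every library but control replicate 3, where it is near it. In control replicate 1 F7 had 2 counts, under the floor of 3 counts, so its place there is not a detectable departure.

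A few genes left the common ratio. More than 5 times above the median percent were Apoc2, F7 and Igfals in KO replicate 2, Apoc1, F7, F10, Vtn and Igfals in KO replicate 3, and Igfbp1 and Igfals in control replicate 3. Igfbp1 stood at 36.9% of its control replicate 2 level in control replicate 3. Apart from Apoc2, at 0 in control replicate 3, no gene fell more than 5 times below the median in KO replicate 2 or control replicate 3. Serpina1e was the lowest of the others, at 0.192% in KO replicate 2 and 1.43% in control replicate 3. At the median percent, F7 would have had 0.319, 33.3 and 2.05 counts in KO replicates 1, 2 and 3, whereas 916, 1049 and 322 were counted. For Igfals the same reckoning gave 0.292, 30.5 and 1.87 counts in the KO libraries, against 2884, 2132 and 1758 counted. Igfals was also above it in control replicates 1 and 3, with 269 and 2167 counted against 0.0965 and 162. Vtn had 572, 1555 and 418 counts in the KO libraries where the median percent gave 6.65, 694 and 42.6. In control replicate 3 the counts of F7, F10 and Vtn were 222, 830 and 4760, near the 177, 782 and 3680 of the median percent. In control replicate 1, Vtn had 185 counts against 2.20 and F10 had 22 against 0.467. F7 had 2 counts there against 0.105, which is under the floor of 3 counts.

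**Figure D3:**
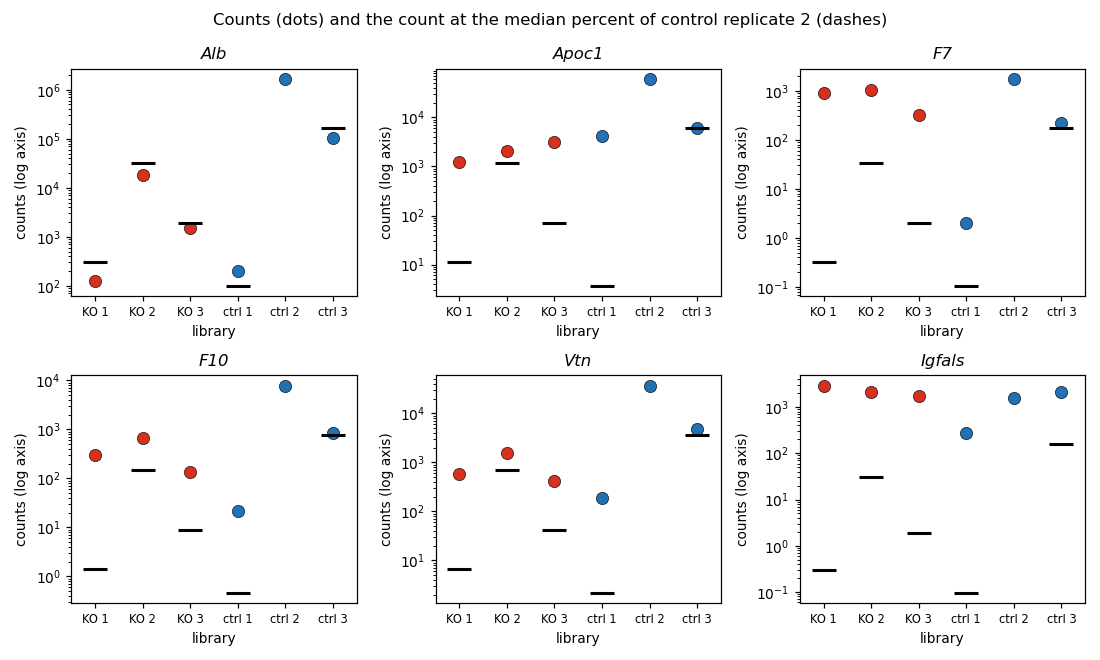
Counts per library (dots, log axes) and the count each gene would have at the median percent of its control replicate 2 level (dashes, not drawn for control replicate 2 itself) for 6 genes. Alb follows the dashes within about the spread of the group, whereas F7 and Igfals lie far above them in all 3 KO libraries. Igfals also lies above them in control replicates 1 and 3.

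The libraries poorest in liver transcripts, KO replicates 1 and 3 and control replicate 1, show which of the genes were counted where liver transcripts were fewest. KO replicate 3 still held 40 of the 57 genes within 2-fold of the median percent, so the source of a level there was not tested. A level of at least 1 CPM in each of these 3 libraries was reached by 6 of the 57 genes, against 22.9% of all 54532 identifiers. The 6 were Alb, Apoc1, Serpina1a, Serpina3k, Vtn and Igfals. Ranked by the lowest value in these 3 libraries, Apoc1, Igfals and Vtn came first, at 40.8, 10.1 and 6.93 CPM. Alb exceeded Vtn in KO replicate 3, where Vtn had 16.2 CPM, and in control replicate 1. Serpina3k, at 7.60 CPM, also exceeded Vtn in control replicate 1. Alb passed with 4.02 and 57.6 CPM in KO replicates 1 and 3 and 7.38 CPM in control replicate 1, at or under 0.0387% of its level in control replicate 2. In KO replicate 3 that percent was below the median gene's 0.0508%, whereas Apoc1, Vtn and Igfals were more than 5 times above the median percent in all 3 of these libraries. Serpina1a and Serpina3k stood at 0.101% and 0.0864% in KO replicate 3, within 2-fold of the median. Serpina1a was more than 5 times above the median percent in KO replicate 1 and control replicate 1, and Serpina3k in control replicate 1 only. F7 passed 1 CPM in KO replicates 1 and 3 but not in control replicate 1, and Apoc3 did so in KO replicate 3 and control replicate 1 but not in KO replicate 1. By FPKM, Apoc1 was the highest of the 57 genes in KO replicates 1 and 3 and in control replicate 1, and ranked 6 in control replicate 2. In control replicate 1 the other 51 genes included 26 at 0, which at this depth allows up to 0.112 CPM each.

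No gene of the group differed between KO and control by edgeR's quasi-likelihood test at an adjusted p of 0.05. That fit covered 15928 genes in all 6 libraries, called none in either direction (0%), and included 56 of the 57 genes, all but Apoc2. Their median log2 fold change was -6.99, against -0.03 over all tested genes, and 55 of the 56 lay below 0. At an unadjusted p under 0.05, 13 of the 56 were lower in KO (4.27% of all tested genes) and none was higher (4.38% of all). The smallest adjusted p of the group was 0.560. Alb averaged 239 ± 361 CPM in KO and 50848 ± 84727 CPM in controls (SD, n = 3 each), with a log2 fold change of -7.74 ± 3.55 (SE) and an adjusted p of 0.560 by edgeR. The spread within the controls thus exceeded their mean. Each SE given with an edgeR fold change was derived from that fold change and the F statistic of the test, not estimated by the fit. Apoc1 averaged 78.1 ± 40.4 CPM in KO and 1947 ± 3046 CPM in controls, with a log2 fold change of -4.64 ± 1.61 and an adjusted edgeR p of 0.560. Igfals averaged 79.1 ± 13.5 CPM in KO and 77.5 ± 66.5 CPM in controls, with a log2 fold change of 0.03 ± 0.83 and an adjusted edgeR p of 0.995.

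The size of these differences turned on control replicate 2, whereas the median of the group stayed below 0 when any single library was left out. Without control replicate 2, edgeR again called none of 56 genes (0% of 16729 in either direction), and the median log2 fold change of the group was -2.90, against -0.04 over all genes. Unadjusted p was then under 0.05 with KO lower for Apoc1 alone (3.5% of all genes) and with KO higher for none (5.46% of all). The log2 fold change of Apoc1 was -1.26 ± 0.47 in that fit, with an adjusted p of 0.540. F7 turned round, with -1.05 ± 1.82 in all 6 libraries and 2.72 ± 1.53 without control replicate 2, where its adjusted edgeR p was 0.641. With KO replicates 1 and 3 set against control replicate 1 alone, 43 of the 57 genes could be tested and 38 lay above 0, at a median log2 fold change of 2.76. F7 was then called higher in KO, with an adjusted edgeR p of 0.0412, where 0.0116% of 17266 genes were called higher. That fit assumes that the lone control varies like the KO libraries, and it leaves out libraries by their liver transcripts. DESeq2 on all 6 libraries called 15 of the 57 genes lower in KO (1.08% of 26694 genes fitted) and none higher (0.903%), and 17 had no adjusted p. Without control replicate 2, DESeq2 called none of the 57 in either direction, against 0.431% of genes lower and 1.4% higher, with 2 of the 57 lower at an unadjusted p under 0.05 (3.65% of all genes).

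**Figure D4:**
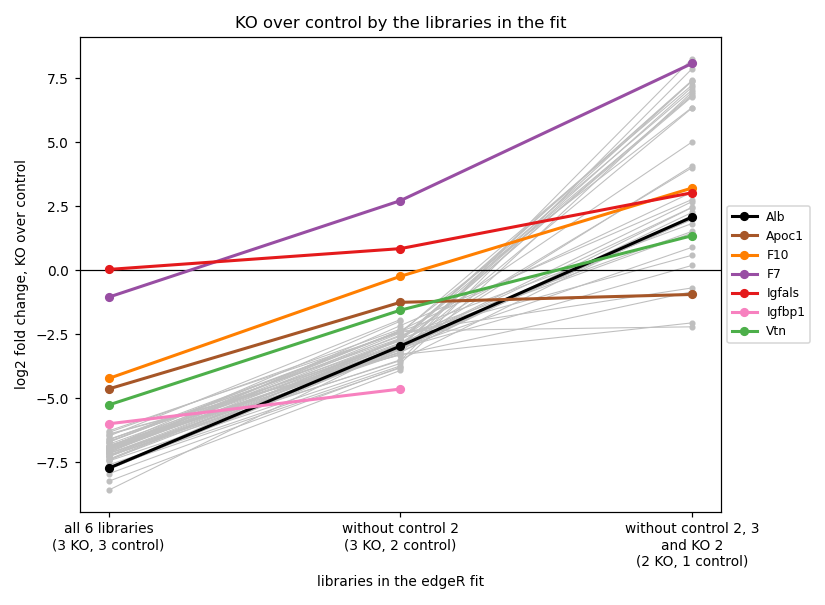
Log2 fold change, KO over control, of each tested gene in 3 edgeR fits: all 6 libraries, without control replicate 2, and without control replicates 2 and 3 and KO replicate 2. Gray lines are the other genes of the group; most lie near -7 in the first fit and near -3 in the second, and above 0 in the last, while Igfals stays at or above 0.

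Related genes outside the group were read from the same fits. Among 19 tested genes for other secreted plasma proteins, edgeR called none, with a median log2 fold change of -2.26 in all 6 libraries and -0.14 without control replicate 2. Apoe, the ligand of remnant receptors, had 3189, 4929 and 5931 CPM in the KO libraries and 5639, 30413 and 4729 CPM in the controls. Hp, which binds free hemoglobin and is also made by adipocytes, had 6369, 5555 and 4050 CPM in the KO libraries and 7670, 7237 and 2609 CPM in the controls. Selenop, which carries selenium, had 1678, 2530 and 1152 CPM in the KO libraries and 2495, 10289 and 1475 CPM in the controls. All of these were abundant in fat without a liver profile, and the genotypes overlapped.

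Of 15 other clotting and fibrinolysis genes edgeR called none, with median log2 fold changes of -0.20 in all 6 libraries and -0.72 without control replicate 2. Cpb2, a liver carboxypeptidase that slows clot lysis, had 0, 121 and 14 counts in the KO libraries and 0, 8612 and 787 counts in the controls, in the order that 40 of the 57 genes showed. Pros1, the cofactor of activated protein C, had 133, 119 and 93.3 CPM in the KO libraries and 57.1, 121 and 91.0 CPM in the controls. The 14 genes of lipoprotein assembly, remodelling and uptake also held none called by edgeR, at median log2 fold changes of -0.89 and -0.15 in the same fits. Angptl4, which inhibits lipoprotein lipase, had 768, 545 and 774 CPM in the KO libraries and 701, 238 and 586 CPM in the controls. Lrp1, a receptor for remnants, had 657, 905 and 304 CPM in the KO libraries and 225, 445 and 415 CPM in the controls. Abca1, the cholesterol exporter, had 266, 282 and 230 CPM in the KO libraries and 273, 303 and 290 CPM in the controls. Angptl4, Lrp1 and Abca1 had at least 225 CPM in all 6 libraries, and their genotypes overlapped.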

How the data were processed

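Libraries were made from fragmented and amplified mRNA, per the labels' protocols. Tools in the submitters' processing notes are featureCounts 1.5.0-p3, HISAT2 2.0.5, StringTie 1.3.3b and fastp, with build mm10. Neither strand setting nor annotation is given in the sources used here, and counts of overlapping or paralogous genes are uncertain for that reason. The authors deposited raw counts per gene and library, and FPKM values scaled by gene length and library.

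Symbols were matched for 54409 of 54532 identifiers, and GENCODE vM21 (GRCm38, the assembly of mm10) gave the coordinates. Genotypes were compared across the whole table with edgeR 4.0.16 (R 4.3.3, filterByExpr, TMM, quasi-likelihood F test, Benjamini-Hochberg adjustment over all genes tested, threshold 0.05). The code was run on simulated libraries that shared a mean profile apart from set fold changes. That run does not show how the test behaves with a liver profile in control replicate 2. Alternatives were DESeq2 1.42.0, limma 3.58.1 on log2(FPKM + 1) or log2(FPKM + 0.1), other scalings and filters, and fits without libraries. TMM-scaled CPM follow the composition of a library: the factor of control replicate 2 was 0.559, and those of the 5 others were 0.982 to 1.25. Replicates differed by far more than sampling noise, with chi-square per degree of freedom of 62.4 to 1235. The 57 genes and all lists were chosen with earlier results of these data known. Values per library are given for up to 3 genes of each role with the highest mean CPM, for genes with at least 1 CPM in each of KO replicates 1 and 3 and control replicate 1, for those over 5 times from the common ratio, and for others as examples of their role. Up to 3 genes of each related list are named by mean CPM. A gene that this rule names is not reported here.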

Additional observations from a re-analysis of the deposited data

How the results depend on the processing

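No paired analysis was possible because the labels give no replicate numbers shared between the genotypes. DESeq2 called 15 genes where edgeR called none, and the fit of KO replicates 1 and 3 against control replicate 1 called 1; leaving out any single replicate called 0 by edgeR. The median log2 fold change of the group ranged from -10.06 without KO replicate 2 to -2.90 without control replicate 2. It was -3.62 by limma on log2(FPKM + 1), with or without a filter, and -2.92 by DESeq2 without control replicate 2, an alternative added after seeing the data. Leaving out control replicates 2 and 3 and KO replicate 2 turned it to 2.76. That fit also turned the log2 fold changes of Alb (2.07), Apoa1 (2.76), Apoa2 (3.04), C9 (0.89), F10 (3.21), F7 (8.08), Fga (7.87), Fgb (6.96), Fgg (8.26), Gc (2.68), Itih2 (4.00), Plg (2.45), Serpina1a (1.52), Serpina1b (2.46), Serpina1d (5.01), Serpina3k (0.19), Serpinc1 (7.40), Ttr (1.45) and Vtn (1.35). Fga, Fgb, Fgg and Serpinc1 had 0 counts in control replicate 1, so their values there depend on the prior count and are no bounds. F7 was also positive by limma on FPKM (0.77 at pseudocount 1, with or without a filter, and 1.73 at 0.1), without control replicate 2 (2.72) and by DESeq2 without it (2.70), and leaving out single replicates gave -1.63 to 2.72. Igfals was negative with DESeq2 size factors (-0.016), without KO replicate 1 (-0.11) and without control replicate 1 (-0.49), and leaving out single replicates gave -0.49 to 0.84. The medians of the related lists turned positive in the fit without those 3 libraries for other secreted proteins (0.35) and lipoprotein genes (0.61). The median of other clotting genes did so by limma on FPKM (0.38 at pseudocount 1, with or without a filter, and 0.52 at 0.1), without control replicate 1 (0.058) and without control replicate 3 (0.065), and leaving out single replicates gave -0.72 to 0.065. The cause of these turns was not tested. KO replicate 3 passed 5-fold over KO replicate 1 for 22 genes and 20-fold for 2. Over all alternatives, 43 values of the main results kept their direction and side of the threshold, 17 moved and 1 reversed. Of values for single genes and lists 386 kept them, 34 reversed, 3 moved and 8 passed the threshold without a change of direction. These 8 were all by DESeq2, and are those of its 15 calls that were followed as single genes. F7, which turned direction in the fit of KO replicates 1 and 3 against control replicate 1, counts among the reversed. The floor of 3 counts lay at 0.0980 to 0.268 CPM, and differences below it were not detectable at this depth. At 0.5 CPM, 11 genes reached the level in the 3 libraries poorest in liver transcripts. With CPM of total counts, the median percents were 1.68 in KO replicate 2, 0.0978 in KO replicate 3 and 8.37 in control replicate 3. Without Alb the genes took 0.178% and 0.0341% of counts in KO replicates 2 and 3, and 0.0201%, 10.5% and 0.791% in control replicates 1, 2 and 3.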
